A study of Mus musculus with 18 samples.

Results

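The 8 troponin genes, Tnnt1, Tnnt2, Tnnt3, Tnni1, Tnni2, Tnni3, Tnnc1 and Tnnc2, were followed in C2C12 cells, an immortalised mouse myoblast line that leaves the cell cycle and fuses into myotubes when serum is lowered. They were taken from the array table by symbol. Each was represented by 1 of the 35556 transcript clusters on the array, and all 8 were among the 19938 genes tested. A transcript cluster is a set of probes combined into 1 value, and not every cluster stands for a single gene. RNA was measured on 18 arrays, 3 biological replicates in each of 6 groups. All cells had been depleted of endogenous TAF3, a subunit of the basal transcription factor TFIID, and rescued with murine TAF3. The KK-TAF3 sh-PIP4K2B cells carried the KK-TAF3 mutant, which no longer binds phosphoinositides but keeps its binding to H3K4me3, and were depleted of PIP4K2B, a kinase that consumes the nuclear phosphoinositide PI5P. The WT-TAF3 sh-PIP4K2B cells carried wild-type TAF3 and were likewise depleted of PIP4K2B. The WT-TAF3 shX cells carried wild-type TAF3 and kept PIP4K2B, and that they carried the control hairpin shX is taken from the study's figure legends and not from the labels. Each line was either treated with etoposide, a topoisomerase II poison, at 10 µM for 7 hours, or differentiated in low serum for 2 days as the labels state, although the series' design text gives a longer time. No array of untreated, undifferentiated cells was analysed here, and the protocols do not say how many clones each stable line comprised.

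Troponin is the calcium switch of the striated muscle thin filament and has 3 kinds of subunit. Troponin C binds calcium, troponin I holds back the interaction of actin with myosin, and troponin T ties the complex to tropomyosin. In adult muscle the subunits come in fibre-type forms: Tnnt1, Tnni1 and Tnnc1 encode the slow forms, Tnnt3, Tnni2 and Tnnc2 the fast forms, and Tnnt2 and Tnni3 the cardiac troponins T and I, while Tnnc1 serves the heart as well. Tnnt2 and Tnni1 are also used by immature skeletal muscle, and differentiating C2C12 cells switch on several of these genes together. The troponin T and troponin I genes lie in pairs in the mouse genome, Tnni1 with Tnnt2 on chromosome 1, and Tnni2 with Tnnt3 and Tnni3 with Tnnt1 on chromosome 7. Tnni2 and Tnnt3 are not within 50 kb of each other, while the other pairs are. Tnnc1 on chromosome 14 and Tnnc2 on chromosome 2 stand alone.

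Promoter windows, running from 250 bases before a RefSeq transcription start to 50 bases after it (build GRCm38.p6), were available for 6 of the 8 genes, in 8 windows, and none was held for Tnnt3 and Tnni2. The windows below are those of Tnnc1 (chr14:31208062-31208361, plus strand) and of the first Tnnt2 start (chr1:135836084-135836383, plus strand), the 2 genes with the largest difference between KK-TAF3 and WT-TAF3 cells, and of Tnnc2 (chr2:164779685-164779984, minus strand), the fast paralogue of Tnnc1, for which no comparison passed the threshold. Capitals mark matches, on either strand, to the E-box CANNTG, which binds MYOD and myogenin, and to the M-CAT element CATTCC, which binds TEAD factors.
Tnnc1: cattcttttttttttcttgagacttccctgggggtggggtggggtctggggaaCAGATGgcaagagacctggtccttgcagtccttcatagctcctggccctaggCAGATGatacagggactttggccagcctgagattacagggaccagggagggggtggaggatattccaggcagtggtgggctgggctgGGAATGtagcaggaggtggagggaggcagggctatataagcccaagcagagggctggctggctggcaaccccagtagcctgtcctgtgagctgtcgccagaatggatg
Tnnt2: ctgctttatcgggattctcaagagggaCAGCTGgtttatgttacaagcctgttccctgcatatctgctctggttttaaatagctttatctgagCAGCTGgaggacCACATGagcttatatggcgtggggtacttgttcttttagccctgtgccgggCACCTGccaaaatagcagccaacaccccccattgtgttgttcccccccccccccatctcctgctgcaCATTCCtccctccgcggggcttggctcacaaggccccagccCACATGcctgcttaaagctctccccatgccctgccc
Tnnc2: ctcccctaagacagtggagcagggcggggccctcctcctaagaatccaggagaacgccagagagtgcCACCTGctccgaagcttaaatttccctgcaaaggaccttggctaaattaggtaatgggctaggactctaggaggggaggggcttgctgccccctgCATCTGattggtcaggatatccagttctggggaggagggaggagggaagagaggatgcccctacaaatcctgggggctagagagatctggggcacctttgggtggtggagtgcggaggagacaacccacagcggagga
The M-CAT letters occurred in the Tnnc1 window, 58 bases before the start and on the reverse strand as GGAATG, and in the first Tnnt2 window, 27 bases before the start. The other 6 troponin windows did not hold them, the second Tnnt2 window included, and 14.7% of 32851 promoter windows of the same length did. All 8 windows held at least 1 E-box, as did 72.3% of all windows. The narrower form CAGCTG, which overlaps CANNTG, was present 2 times in the first Tnnt2 window and 1 time in each Tnni1 window, against 16.3% of all windows with at least 1. The Tnni1 windows overlap each other, and their CAGCTG is the same site. The TATA letters TATAAA, searched in the same way and held by 13.6% of all windows, occurred only in the Tnnt1 window among the troponin windows, 30 bases before the start. Only these exact letters were searched, so that variants such as the tatataag in the Tnnc1 window were not counted. Tnni3 had a single E-box, 19 bases before its start. These matches describe letters in a window, and no binding was measured on these arrays.

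Values are log2 signals after RMA, so that a difference of 1 is a 2-fold change, and the level of one gene cannot be set against that of another because each has its own probes. A gene was called higher or lower at a Benjamini-Hochberg adjusted p under 0.05, from 1 limma model of all 18 arrays, with a change above 1.4-fold. Arrays within a group correlated at 0.990 to 0.997 and array medians lay between 7.25 and 7.46. The median standard deviation of a gene was 0.069 to 0.073 within the groups of differentiated cells and 0.095 to 0.137 within the etoposide groups. Pip4k2b signal fell in both depleted lines, to 9.86 ± 0.04 in KK-TAF3 sh-PIP4K2B and 9.55 ± 0.09 in WT-TAF3 sh-PIP4K2B cells against 10.69 ± 0.01 in WT-TAF3 shX cells after differentiation (SD, n = 3 each), by 0.83 (adjusted p = 6.09e-05) and 1.14 (adjusted p = 1.78e-06) on the log2 scale. The 3 KK-TAF3 sh-PIP4K2B arrays lay above the 3 WT-TAF3 sh-PIP4K2B arrays (log2 difference 0.31, 95% limits 0.10 to 0.52, adjusted p = 0.255), and the part of this residual Pip4k2b RNA in the differences between the depleted lines was not tested. Taf3 signal, in which the rescue and the endogenous transcript may both be read, was 8.60 ± 0.03, 8.77 ± 0.05 and 8.77 ± 0.10 in differentiated KK-TAF3 sh-PIP4K2B, WT-TAF3 sh-PIP4K2B and WT-TAF3 shX cells (SD, n = 3 each). The KK-TAF3 sh-PIP4K2B arrays all lay below the WT-TAF3 sh-PIP4K2B arrays (log2 difference -0.17, 95% limits -0.31 to -0.03, adjusted p = 0.456). The part of this Taf3 difference in the troponin differences was not tested.

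The first question was whether depletion of PIP4K2B altered the troponin genes of differentiating cells. Of the 8, 3 were higher in the depleted cells, the troponin T genes Tnnt3 and Tnnt2 and the troponin C gene Tnnc1, by 1.53- to 1.78-fold, and none was lower. Over all 19938 genes, 0.682% were called higher and 0.376% lower, so that 64.5% of the calls were upward, a share that was 91.1% when each array was centred on its own median and 40.3% with the array median as a covariate. The median change of the 8 troponin genes was 0.34, against -0.02 over all genes tested. The troponin I genes showed smaller differences, and Tnnc2 and Tnni3 were level.

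Tnnt3, the fast skeletal troponin T, gave the largest response. Its log2 signal was 10.97, 11.01 and 10.89 on the 3 WT-TAF3 sh-PIP4K2B arrays, against 10.05, 10.08 and 10.25 on the 3 WT-TAF3 shX arrays. The depleted arrays all lay above the controls, with a gap wider than the spread of either group. The log2 change was 0.83 (SE 0.07, adjusted p = 1.42e-06). Tnnt2, the cardiac and embryonic troponin T, read 10.88, 10.98 and 11.04 in WT-TAF3 sh-PIP4K2B cells and 10.25, 10.32 and 10.43 in WT-TAF3 shX cells. These groups did not overlap either, and the log2 change was 0.63 (SE 0.09, adjusted p = 3.37e-04). Tnnc1, the troponin C of slow and cardiac muscle, read 9.59, 9.99 and 9.81 in WT-TAF3 sh-PIP4K2B cells and 9.15, 9.15 and 9.25 in WT-TAF3 shX cells, a log2 change of 0.62 (SE 0.10, adjusted p = 0.00205). Its depleted arrays were the more scattered, replicate 1 being the lowest, but each exceeded every control.

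Tnnt1, the slow skeletal troponin T, had an adjusted p under the threshold and a change below 1.4-fold. It read 8.62, 8.93 and 8.71 in WT-TAF3 sh-PIP4K2B cells against 8.30, 8.24 and 8.39 in WT-TAF3 shX cells (log2 change 0.45, SE 0.09, adjusted p = 0.00781), again without overlap. The troponin I genes did not pass: the log2 change was 0.24 for Tnni1, the slow form (adjusted p = 0.0656), 0.09 for Tnni2, the fast form (adjusted p = 0.522), and -0.05 for Tnni3, the cardiac form (adjusted p = 0.748). The depleted arrays of Tnni1 and Tnni2 also all lay above the controls, so absence of overlap did not set the called genes apart. How many of all genes lacked overlap was not counted. Tnnc2, the fast troponin C, read 7.73, 7.78 and 7.71 in WT-TAF3 sh-PIP4K2B cells and 7.79, 7.72 and 7.77 in WT-TAF3 shX cells, and these arrays interleaved (log2 change -0.02, 95% limits -0.23 to 0.19).

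**Figure D1:**
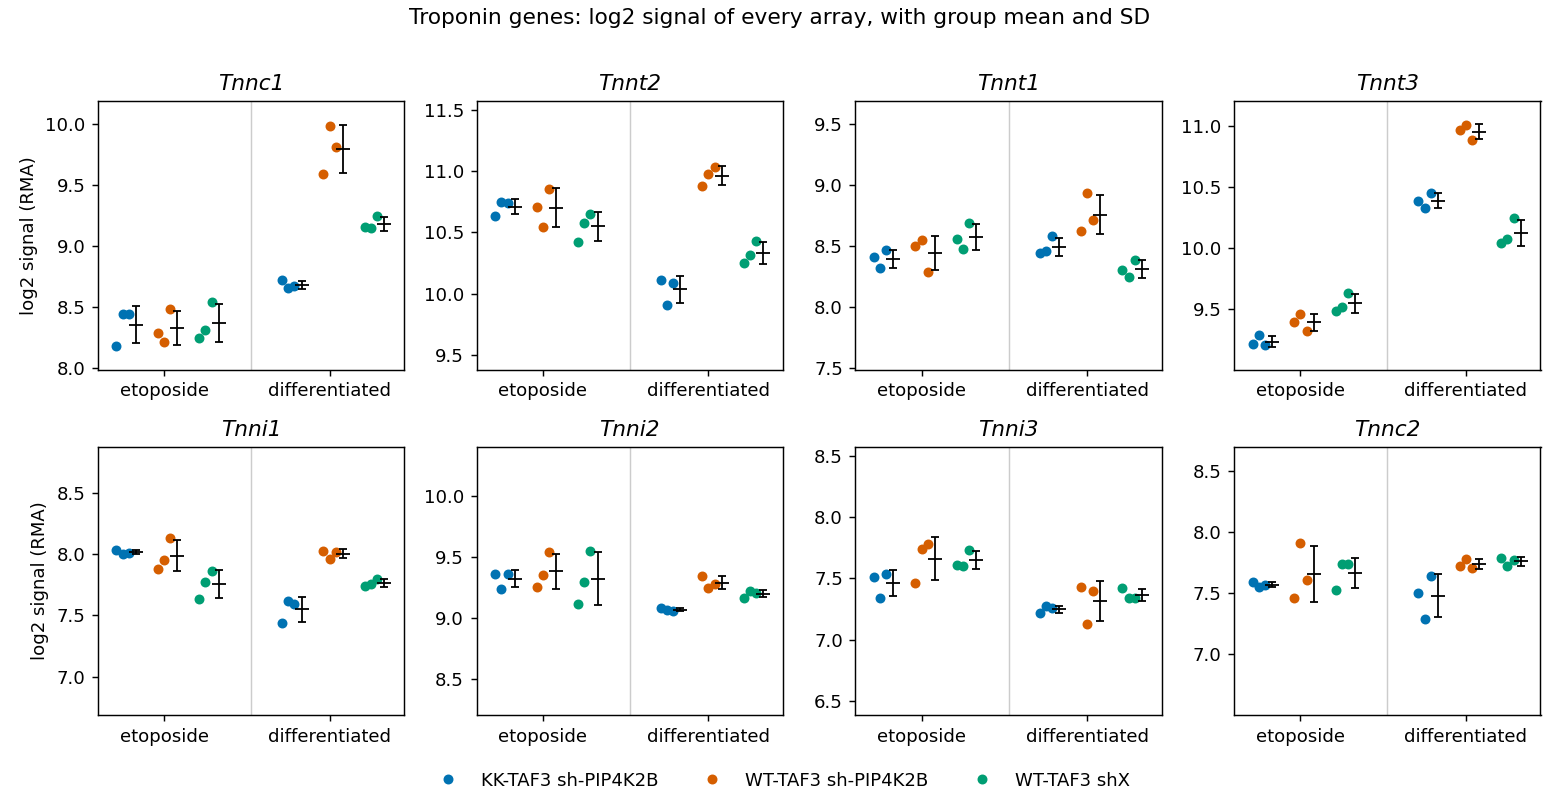
Log2 RMA signal (y axis) of each troponin gene on each of the 18 arrays, 1 panel a gene with its own scale, by treatment (x axis) and genotype (colour). Points are arrays, and black marks with bars are the mean and SD of a group. Tnnt3, Tnnt2 and Tnnc1 stand highest in differentiated WT-TAF3 sh-PIP4K2B cells. Tnnt3 was called lower after etoposide in every genotype, and Tnnc1 in those with WT-TAF3.

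The second question was whether the phosphoinositide-binding site of TAF3 mattered for these levels once PIP4K2B was depleted. No KK-TAF3 cells that kept PIP4K2B were on these arrays, so whether a KK-TAF3 difference depended on the depletion cannot be told. In differentiated KK-TAF3 sh-PIP4K2B cells, Tnnc1, Tnnt2 and Tnnt3 were lower than in WT-TAF3 sh-PIP4K2B cells by 1.48- to 2.16-fold, and no troponin gene was higher. Over all genes tested 0.216% were called lower and 0.301% higher. The median troponin change was -0.36, against 0.02 over all genes. The same 3 genes were thus called in both comparisons, which share the WT-TAF3 sh-PIP4K2B arrays and for that reason are not independent of each other: a high reading on those 3 arrays enters both with opposite sign.

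Tnnc1 differed most. Its log2 signal was 8.72, 8.66 and 8.67 in KK-TAF3 sh-PIP4K2B cells, against 9.59, 9.99 and 9.81 in WT-TAF3 sh-PIP4K2B cells, a log2 change of -1.11 (SE 0.10, adjusted p = 3.36e-06). The mutant arrays were tightly grouped and far below. Tnnt2 read 10.11, 9.91 and 10.09 in KK-TAF3 sh-PIP4K2B cells and 10.88, 10.98 and 11.04 in WT-TAF3 sh-PIP4K2B cells (log2 change -0.93, SE 0.09, adjusted p = 4.16e-06). Tnnt3 read 10.39, 10.33 and 10.45 in KK-TAF3 sh-PIP4K2B cells and 10.97, 11.01 and 10.89 in WT-TAF3 sh-PIP4K2B cells (log2 change -0.57, SE 0.07, adjusted p = 1.36e-04). In neither gene did the groups overlap.

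Tnni1 passed the adjusted p but not the fold limit, with 7.43, 7.62 and 7.59 in KK-TAF3 sh-PIP4K2B cells against 8.03, 7.96 and 8.02 in WT-TAF3 sh-PIP4K2B cells (log2 change -0.46, SE 0.08, adjusted p = 0.00279). The remaining genes had adjusted p-values of 0.308 or more: the log2 change was -0.26 for Tnnt1, -0.26 for Tnnc2, -0.22 for Tnni2 and -0.07 for Tnni3. The 95% limits of the Tnnc2 change, -0.47 to -0.05, and of the Tnni2 change, -0.41 to -0.03, lay below 0 before adjustment over all genes. For Tnni1, Tnnt1, Tnnc2 and Tnni2 the KK-TAF3 sh-PIP4K2B arrays also all lay below the WT-TAF3 sh-PIP4K2B arrays. Only those of Tnni3 overlapped, so absence of overlap did not set the called genes apart here either. The share of all genes without overlap was again not counted, so nothing can be read from its absence.

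The third comparison set the double-modified KK-TAF3 sh-PIP4K2B cells against the WT-TAF3 shX controls, to show where the mutant cells stood relative to cells that had kept PIP4K2B. Only Tnnc1 was called among the troponin genes, beside 1.26% of all genes in either direction: 8.72, 8.66 and 8.67 in KK-TAF3 sh-PIP4K2B cells against 9.15, 9.15 and 9.25 in WT-TAF3 shX cells, a log2 change of -0.50 (SE 0.10, adjusted p = 0.00822). That change, 1.41-fold, lay just past the fold limit, and it fell short of the limit when WT-TAF3 shX replicate 3 was left out and when each array was centred on its median. The troponin T genes diverged in sign below the fold limit. Tnnt3 was 0.27 above the control (adjusted p = 0.0292) and Tnnt2 0.30 below it (log2 change -0.30, adjusted p = 0.0443). In differentiated cells the 3 called genes therefore ordered the genotypes differently, Tnnt3 from WT-TAF3 sh-PIP4K2B (10.96) through KK-TAF3 sh-PIP4K2B (10.39) to WT-TAF3 shX (10.12), and Tnnc1 from WT-TAF3 sh-PIP4K2B (9.80) through WT-TAF3 shX (9.18) to KK-TAF3 sh-PIP4K2B (8.68), with Tnnt2 in the order of Tnnc1 at 10.97, 10.33 and 10.04.

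**Figure D2:**
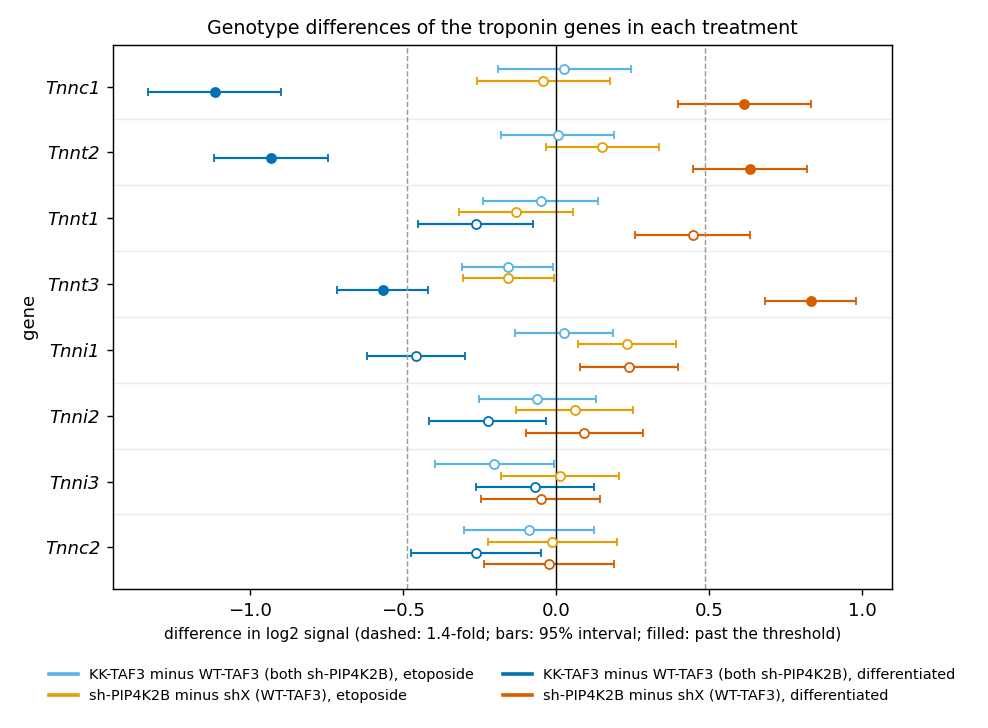
Log2 change (x axis) of each troponin gene (y axis) for KK-TAF3 minus WT-TAF3 in depleted cells and for depleted minus control WT-TAF3 cells, after etoposide and after differentiation (colours). Points are limma estimates with 95% limits from 3 arrays a group, filled where the gene was called, and dashed lines mark 1.4-fold. The filled points are Tnnt2, Tnnt3 and Tnnc1 in differentiated cells, on the left with KK-TAF3 (-1.11 to -0.57) and on the right with depletion (0.62 to 0.83).

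The genes of each genomic pair were compared by the difference between their changes, with 95% limits over the arrays and without a p-value. On depletion of PIP4K2B in differentiated cells Tnnt3 exceeded Tnni2 by 0.74 (95% limits 0.52 to 0.96), Tnnt2 exceeded Tnni1 by 0.40 (0.20 to 0.59) and Tnnt1 exceeded Tnni3 by 0.50 (0.18 to 0.81). In each pair it was the troponin T gene that differed more between depleted and control cells. With KK-TAF3 in place of WT-TAF3 the troponin T genes were again the more affected in the pair of Tnnt2 with Tnni1, by -0.47 (-0.67 to -0.28), and of Tnnt3 with Tnni2, by -0.34 (-0.57 to -0.12), while Tnnt1 and Tnni3 differed by -0.19 with limits that included 0 (-0.51 to 0.12). The troponin C paralogues separated too, Tnnc1 minus Tnnc2 being 0.64 (0.31 to 0.97) on depletion and -0.85 (-1.18 to -0.53) with KK-TAF3. The signals of Tnni1, Tnni3 and Tnnc2 were low, at 7.77, 7.37 and 7.76 in differentiated WT-TAF3 shX cells. These lay near or little above the array medians, while Tnni2 read 9.20. Whether low signal narrowed the changes of the dimmer genes in these pairs was not tested. Of the 33 annotated genes within 50 kb of a troponin gene, 28 were measured, and in these 2 comparisons none was called, with changes between -0.36 and 0.37 on depletion and between -0.10 and 0.13 with KK-TAF3.

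The slow and fast forms were not separated by the calls. On depletion the called genes comprised the fast Tnnt3, the slow and cardiac Tnnc1 and the cardiac and embryonic Tnnt2, and the fast Tnni2 and Tnnc2 were not among them. Of the 13 other fast fibre genes 3 were higher on depletion, Myl1, Mylpf and Actn3 (log2 changes 0.95, 0.56 and 0.52), and 1 was lower with KK-TAF3, Myl1 (-0.81). Of the 11 other slow fibre genes 1 was higher on depletion and 1 lower with KK-TAF3, in both cases Casq2, the calsequestrin of slow and cardiac muscle (log2 changes 0.73 and -1.22). Beside these counts, 0.682% of all genes were called higher on depletion and 0.216% lower with KK-TAF3.

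The troponin genes sit among other genes of the contractile apparatus. Of 22 further thin filament genes, none was called on depletion (2 had an adjusted p under 0.05, and the median change was -0.03), and 3 were lower with KK-TAF3, the actins Acta1 and Actc1 (-1.18 and -0.65) and Klhl41 (-0.58), a protein that stabilises the thin filament component nebulin. The tropomyosins Tpm1 and Tpm2, to which troponin T attaches, had changes of 0.15 and 0.10 on depletion and of -0.10 and -0.07 with KK-TAF3, none of them called. Of 19 sarcomeric myosin genes, 2 were higher on depletion, the fast light chains Myl1 and Mylpf, and 4 were lower with KK-TAF3, the embryonic light chain Myl4 (-0.94), the embryonic heavy chain Myh3 (-0.93), Myl1, and the myosin binding protein Mybph (-0.73). Of 19 genes of calcium release, which supply the calcium that troponin C binds, 3 were higher on depletion, Casq2, the sarcoplasmic reticulum protein Srl (0.57) and Trdn, which anchors calsequestrin (0.53), and Casq2 alone was lower with KK-TAF3. The lists overlap: Myl1 and Mylpf were also counted as fast fibre genes and Casq2 as a slow fibre gene. The shares over all genes were 0.682% higher on depletion and 0.216% lower with KK-TAF3. An adjusted p under 0.05 on depletion was reached by 1225 of 19938 genes. List medians ranged from -0.10 to 0.04 on depletion and from -0.13 to -0.04 with KK-TAF3 over these lists and the fibre-type lists, against 0.34 and -0.36 for troponin.

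**Figure D3:**
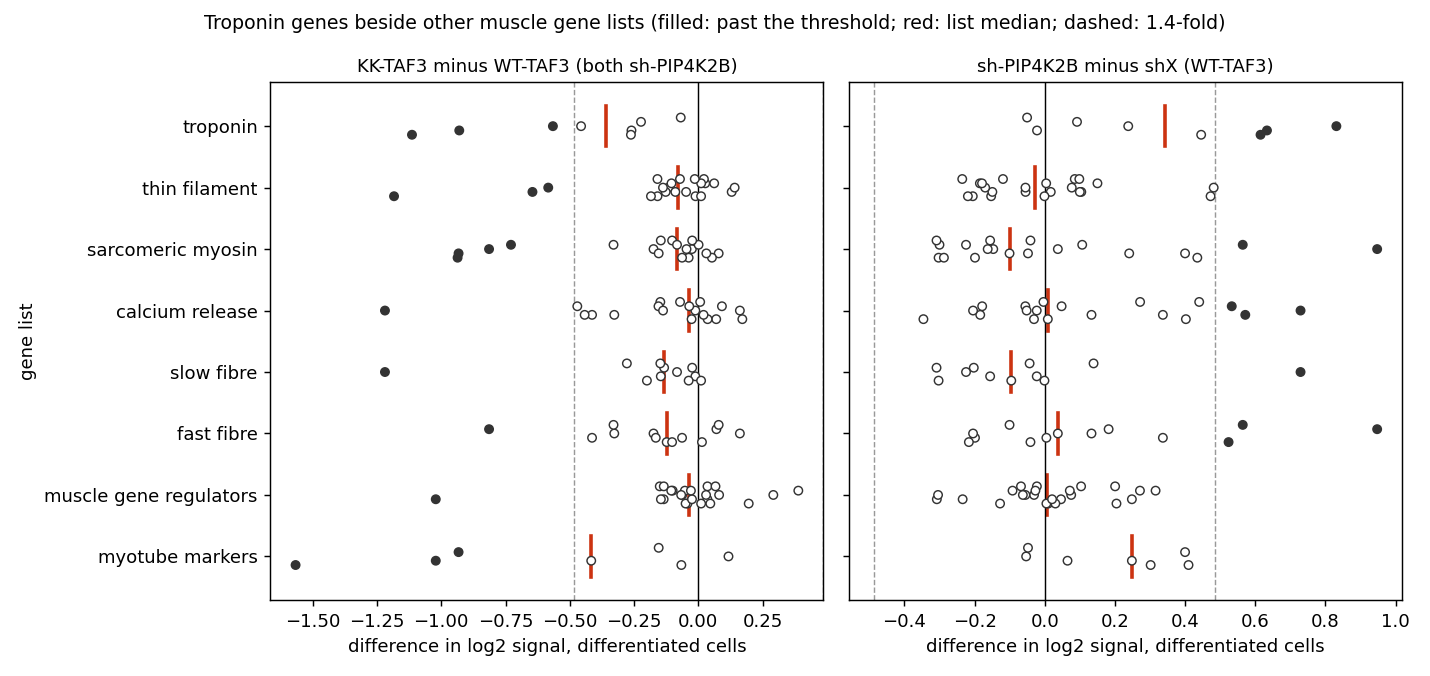
Log2 changes of single genes in differentiated cells, grouped by gene list (y axis), for KK-TAF3 minus WT-TAF3 (left) and for PIP4K2B depletion (right). Each point is 1 gene, filled where it was called, and red bars are list medians. The troponin medians are -0.36 and 0.34 and those of the myotube markers -0.42 and 0.25, while the medians of the other 6 lists drawn lie between -0.13 and 0.04.

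Few regulators of muscle genes differed between genotypes. Among 24 measured regulators of muscle genes none was called on depletion, and 1 was lower with KK-TAF3, Myog, which encodes the E-box factor myogenin (log2 change -1.02, adjusted p = 2.19e-06). Beside this, 0.216% of all genes were called lower with KK-TAF3. Myog averaged 6.93 ± 0.10 in KK-TAF3 sh-PIP4K2B cells, 7.95 ± 0.13 in WT-TAF3 sh-PIP4K2B cells and 7.70 ± 0.05 in WT-TAF3 shX cells (SD, n = 3 each). The TEAD genes Tead1 and Tead4 had changes of 0.03 and 0.02 on depletion and of 0.05 and -0.15 with KK-TAF3, and Myod1 of 0.00 and 0.20, none of them called. The genes with the profile most like each called troponin gene were ranked by Pearson correlation over the 9 arrays of differentiated cells, among 1758 genes with a standard deviation of at least 0.2. For Tnnt2 they were Ppef1 (r = 0.988), C1qtnf3 (0.983) and Casq2 (0.981). For Tnnc1 they were Pcx (0.982), Casq2 (0.979) and Gask1b (0.978), and for Tnnt3 Fmo1 (0.976), Pik3r3 (0.975) and Hjv (0.974). These correlations describe 3 groups of 3 arrays that share their genotype, and carry no test.

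The mean signal of the myotube markers, though not each marker, ordered the differentiated genotypes as Tnnc1 and Tnnt2 did. The mean signal of 7 myotube markers ranged over the arrays from 8.58 to 8.69 in KK-TAF3 sh-PIP4K2B cells, from 9.19 to 9.22 in WT-TAF3 sh-PIP4K2B cells and from 9.01 to 9.04 in WT-TAF3 shX cells after differentiation. With KK-TAF3, 3 of the 7 were lower, beside 0.216% of all genes. These were the fusion gene Mymk (-1.57) and Myog and Myh3, both of which were counted in lists above. Des (0.12), Cdh15 (-0.07), Myh8 (-0.15) and Ckm (-0.42) were not called. On depletion 0 of the 7 were called, with changes between -0.05 and 0.41, although 3 had an adjusted p under 0.05, as did 1225 of all 19938 genes. Bulk RNA cannot tell fewer myotubes from less troponin RNA per myotube, and the part that myotube number had in the troponin differences was not tested. The mean signal of 5 markers of proliferating myoblasts ranged over the arrays from 10.38 to 10.43 in KK-TAF3 sh-PIP4K2B cells, from 10.53 to 10.59 in WT-TAF3 sh-PIP4K2B cells and from 10.33 to 10.38 in WT-TAF3 shX cells after differentiation. On depletion 0 of the 5 were called, with a median change of 0.28, but Top2a (log2 change 0.40, adjusted p = 0.0132) and Myf5 (log2 change 0.27, adjusted p = 0.0261) had an adjusted p under 0.05. With KK-TAF3 their median change was -0.10 and 0 were called, and the part of proliferating cells in the troponin differences was not tested. The 8 cardiomyocyte markers, examined because Tnnt2, Tnni3 and Tnnc1 are also heart genes, were not called in either comparison. Lum, a fibroblast marker, was lower on depletion (log2 change -1.06, adjusted p = 8.37e-07), 1 of 5 fibroblast markers called, beside 0.376% of all genes called lower. The part of other cells was not tested. Smooth muscle, adipocyte, macrophage and neuron markers had no call in the depletion and KK-TAF3 comparisons of differentiated cells.

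After etoposide, genotype made little difference to the troponin genes. Depletion of PIP4K2B called 0 of the 8, beside 0.868% of all genes, and 2 had an unadjusted p under 0.05. KK-TAF3 compared with WT-TAF3, each in depleted cells, likewise called 0, beside 0.406% of all genes, with 2 under an unadjusted p of 0.05. KK-TAF3 sh-PIP4K2B cells compared with WT-TAF3 shX cells gave 0, beside 1.15%, with 2 under an unadjusted p of 0.05. In the limma model of these 3 comparisons the fold limit together with an unadjusted p also gave 0 genes each. Tnnt3 came nearest, at 9.21, 9.29 and 9.21 in KK-TAF3 sh-PIP4K2B cells against 9.49, 9.52 and 9.64 in WT-TAF3 shX cells, a log2 change of -0.31 (SE 0.07, adjusted p = 0.0166) that was under the fold limit. Tnnc1 read 8.18, 8.45 and 8.44 in KK-TAF3 sh-PIP4K2B cells, 8.29, 8.21 and 8.48 in WT-TAF3 sh-PIP4K2B cells and 8.25, 8.32 and 8.54 in WT-TAF3 shX cells. Its 3 etoposide groups overlapped throughout, with a 95% limit for the depletion change of -0.26 to 0.18.

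Etoposide-treated cells were then set against differentiated cells of the same genotype. The pair differs in serum, time and drug at once, so these cannot be told apart. In WT-TAF3 shX cells, Tnnt3 (log2 change -0.58, SE 0.07, adjusted p = 6.41e-06) and Tnnc1 (-0.81, SE 0.10, adjusted p = 9.31e-06) were lower after etoposide, 2 of 8 genes against 7.63% of all genes called in either direction. In WT-TAF3 sh-PIP4K2B cells the same 2 genes were lower, by more: Tnnt3 read 9.40, 9.46 and 9.32 after etoposide against 10.97, 11.01 and 10.89 after differentiation (log2 change -1.56, SE 0.07, adjusted p = 1.42e-11), and Tnnc1 8.29, 8.21 and 8.48 against 9.59, 9.99 and 9.81 (log2 change -1.47, SE 0.10, adjusted p = 4.59e-09), beside 9.95% of all genes. In KK-TAF3 sh-PIP4K2B cells the pattern was another, beside 8.33% of all genes. Tnnt3 was lower after etoposide (log2 change -1.15, SE 0.07, adjusted p = 8.91e-10), whereas Tnnt2 was higher, at 10.64, 10.75 and 10.74 after etoposide against 10.11, 9.91 and 10.09 after differentiation (log2 change 0.67, SE 0.09, adjusted p = 1.27e-05).

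Some of the other genes passed the adjusted p with a change below 1.4-fold. They included Tnnt1 (-0.31, adjusted p = 0.0116) and Tnnt2 (-0.26, adjusted p = 0.0281) in WT-TAF3 sh-PIP4K2B cells. Tnnt1 had the opposite sign in WT-TAF3 shX cells (0.26, adjusted p = 0.0388). In KK-TAF3 sh-PIP4K2B cells Tnni1 read 8.03, 8.003 and 8.01 after etoposide against 7.43, 7.62 and 7.59 after differentiation (log2 change 0.47, SE 0.08, adjusted p = 1.35e-04), Tnni2 had a change of 0.25 (adjusted p = 0.0476), and Tnnc1 of -0.33 (adjusted p = 0.0254). Tnni3 had changes of 0.28 in WT-TAF3 shX cells (adjusted p = 0.0312), 0.35 in WT-TAF3 sh-PIP4K2B cells (adjusted p = 0.00731) and 0.21 in KK-TAF3 sh-PIP4K2B cells (adjusted p = 0.0995). Tnnc2 differed by -0.09 in WT-TAF3 shX cells, -0.08 in WT-TAF3 sh-PIP4K2B cells and 0.09 in KK-TAF3 sh-PIP4K2B cells, with adjusted p-values of 0.539 to 0.558.

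**Figure D4:**
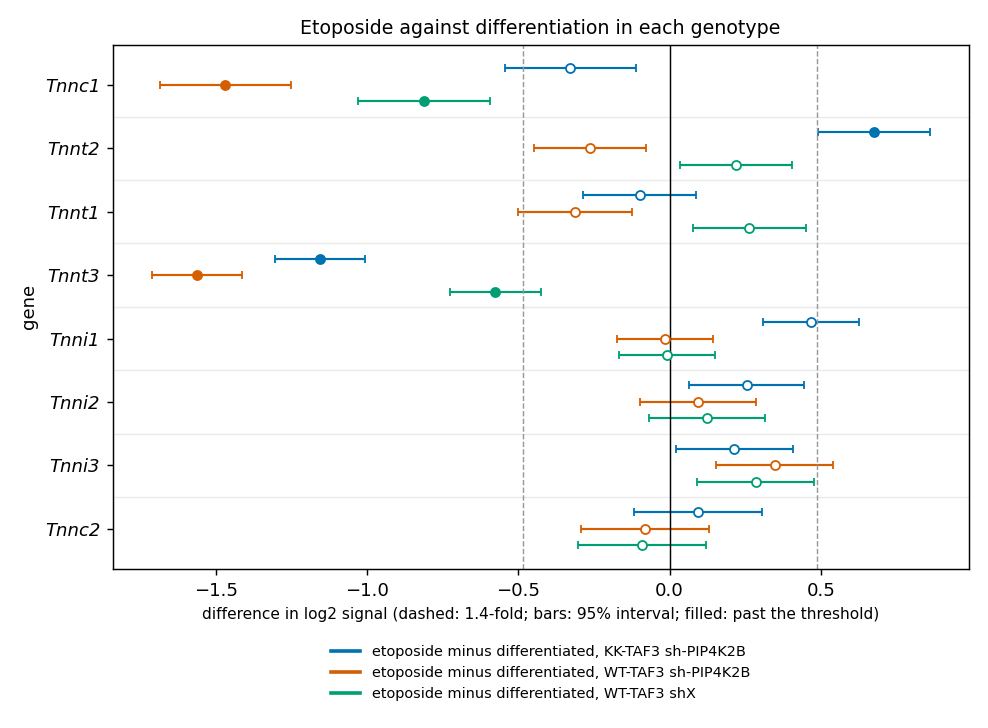
Log2 change (x axis) of each troponin gene (y axis) between etoposide-treated and differentiated cells of the same genotype. Points are limma estimates with 95% limits from 3 arrays a group, filled where called, and dashed lines mark 1.4-fold. Tnnt3 lies left of the lower line in all 3 genotypes, at -1.15 in KK-TAF3 sh-PIP4K2B, -1.56 in WT-TAF3 sh-PIP4K2B and -0.58 in WT-TAF3 shX cells, and Tnnt2 lies right of the upper line only in KK-TAF3 sh-PIP4K2B cells.

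The difference of the genotype effects between treatments was tested as an interaction in the same model. The effect of depletion on Tnnt3 was lower after etoposide than after differentiation by 0.99 on the log2 scale (interaction -0.99, SE 0.10, adjusted p = 2.29e-05), that on Tnnc1 by 0.66 (interaction -0.66, SE 0.15, adjusted p = 0.0211) and that on Tnnt1 by 0.58 (interaction -0.58, SE 0.13, adjusted p = 0.0197), beside 4.02% of all genes. With 1 array left out at a time the count over all genes, 801, ran between 180 (without WT-TAF3 shX differentiated replicate 1) and 2668 (without WT-TAF3 sh-PIP4K2B etoposide replicate 1). Tnnt2 had an interaction of -0.48 (adjusted p = 0.0348), just under the fold limit. The calls of Tnnc1 and Tnnt1 were lost when WT-TAF3 sh-PIP4K2B replicate 2 or WT-TAF3 shX replicate 1 or 2 of the differentiated cells was left out, that of Tnnc1 also without WT-TAF3 sh-PIP4K2B replicate 2 of the etoposide-treated cells, and that of Tnnt3 was kept. The KK-TAF3 change of Tnnc1 was -1.11 after differentiation and 0.03 after etoposide (interaction 1.14, SE 0.15, adjusted p = 0.00108). That of Tnnt2 was -0.93 and 0.01 (interaction 0.94, SE 0.12, adjusted p = 0.00128). Beside these, 0.15% of all genes were called. Tnnt3 and Tnni1 had KK-TAF3 interactions of 0.41 (adjusted p = 0.205) and 0.48 (adjusted p = 0.116).

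Over the 6 groups, the levels of Tnnc1 ran from 8.33 to 8.37 in the 3 etoposide groups, which were not distinguishable, through 8.68 in differentiated KK-TAF3 sh-PIP4K2B cells and 9.18 in differentiated WT-TAF3 shX cells to 9.80 in differentiated WT-TAF3 sh-PIP4K2B cells. Those of Tnnt3 ran from 9.24 to 9.55 in the etoposide groups and from 10.12 to 10.96 in the differentiated groups, without overlap between the treatments. Tnnt2 was lowest in differentiated KK-TAF3 sh-PIP4K2B cells (10.04) and highest in differentiated WT-TAF3 sh-PIP4K2B cells (10.97), with the etoposide groups between them at 10.55 to 10.71. The group means of Tnnt1 spanned 8.31 to 8.76, of Tnni1 7.55 to 8.02, of Tnni2 9.07 to 9.39, of Tnni3 7.25 to 7.66 and of Tnnc2 7.48 to 7.76. Tnni3 and Tnnc2 were near the array medians and Tnni1 little above them. Whether the probes of these genes read RNA above background was not tested.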

How the data were processed

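RNA was profiled on 18 Affymetrix whole-transcript arrays. Per the labels, the authors ran RMA in Affymetrix Expression Console (version not given in the sources used here), so the deposited values are log2 signals, background-corrected, quantile-normalised between arrays and combined over the probes of a transcript cluster. The values were used as deposited, with no filter on low signal. Of 35556 transcript clusters, 21789 had 1 symbol in the annotation used, 1621 had several and 12146 were not listed there. The study's supplement names a later chip generation than that of the annotation in which the identifiers were found, on which the gene names rest. The brightest single-symbol cluster was kept per gene, which left 19938 genes.

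Group means were fitted in 1 model of the 18 arrays with limma 3.58.1 in R 4.3.3 (12 residual and 6.05 prior degrees of freedom), and p-values were adjusted by the Benjamini-Hochberg method over all 19938 genes. Genes were called at an adjusted p under 0.05 and a change above 1.4-fold. Named genes were the 8 troponin genes, up to 4 called members of a list by size of change, genes within 50 kb, the 3 genes most like a called troponin gene, Pip4k2b and Taf3. The troponin genes and the 14 other lists were chosen with earlier results of these data known. Promoter sequences are from RefSeq (GRCm38.p6), and motif matches were counted with Python 3.11.15. Alternatives covered the call rule, the arrays in the fit, the variance prior, the clusters tested, the normalisation, the array median and replicate number as terms, and leaving out each array. Same-numbered arrays correlated above 0.1 in all 3 pairs only between WT-TAF3 shX cells and each depleted line after etoposide (residual correlations 0.332 to 0.559 for WT-TAF3 sh-PIP4K2B). The number of arrays limits the precision.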

Additional observations from a re-analysis of the deposited data

Results flagged for a closer look

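The genotype effects on 4 troponin genes differed between etoposide-treated and differentiated cells by the interaction test in limma. For PIP4K2B depletion the etoposide effect minus the differentiated effect was -0.99 for Tnnt3 (etoposide effect -0.16, differentiated effect 0.83, adjusted p = 2.29e-05), -0.66 for Tnnc1 (-0.04 and 0.62, adjusted p = 0.0211) and -0.58 for Tnnt1 (-0.13 and 0.45, adjusted p = 0.0197). Written the other way, the same contrast is the difference in the etoposide effect between WT-TAF3 sh-PIP4K2B and WT-TAF3 shX cells. Tnnt3 was called lower after etoposide in both. Tnnt1 had changes of -0.31 in WT-TAF3 sh-PIP4K2B cells (adjusted p = 0.0116) and 0.26 in WT-TAF3 shX cells (adjusted p = 0.0388). Neither of them was past the fold limit.

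For KK-TAF3 relative to WT-TAF3 the etoposide effect minus the differentiated effect was 1.14 for Tnnc1 (etoposide effect 0.03, differentiated effect -1.11, adjusted p = 0.00108) and 0.94 for Tnnt2 (0.01 and -0.93, adjusted p = 0.00128). The WT-TAF3 sh-PIP4K2B arrays enter both kinds of difference. The summed myotube markers moved in the same comparison: over 7 markers the array means ran from 8.58 to 8.69 in KK-TAF3 sh-PIP4K2B cells and from 9.19 to 9.22 in WT-TAF3 sh-PIP4K2B cells after differentiation, and from 8.56 to 8.66 and from 8.57 to 8.77 in the same genotypes after etoposide. Their part in the troponin values was not tested.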

How the results depend on the processing

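No call of a troponin gene changed direction under any alternative. The 6 calls of Tnnt2, Tnnt3 and Tnnc1 for PIP4K2B depletion and for KK-TAF3 relative to WT-TAF3 in differentiated cells were kept in all 28 alternatives, with log2 changes of 0.77 to 0.93 for Tnnt3, 0.57 to 0.73 for Tnnt2 and 0.52 to 0.72 for Tnnc1 on depletion. Not all of these could remove a call: an unadjusted p and no fold limit only loosened the rule. Leaving out an etoposide array reached these comparisons only through the pooled spread and the adjustment of p. Without the fold limit 3 troponin genes passed between KK-TAF3 sh-PIP4K2B and WT-TAF3 shX cells after differentiation, and 1 after etoposide. Of all 19938 genes, 1727 and 617 passed in these comparisons. The same setting gave 4, 5 and 5 troponin genes for etoposide relative to differentiation in WT-TAF3 shX, WT-TAF3 sh-PIP4K2B and KK-TAF3 sh-PIP4K2B cells. Of all 19938 genes it gave 4609, 6925 and 5067. Centring each array on its median left 0 troponin genes between differentiated KK-TAF3 sh-PIP4K2B and WT-TAF3 shX cells, and the array median as a covariate left 1, Tnnt3, for the depletion interaction. The cause was not tested.

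With 1 array left out at a time, the number of troponin genes called in differentiated cells was 3 to 4 on depletion, 3 to 4 for KK-TAF3, and 0 to 1 between KK-TAF3 sh-PIP4K2B and WT-TAF3 shX cells (0 without WT-TAF3 shX replicate 3). It was 0 in each genotype comparison after etoposide, 2 for etoposide relative to differentiation in each genotype with WT-TAF3 and 2 to 3 with KK-TAF3. It was 1 to 4 for the depletion interaction, with 1 left without WT-TAF3 sh-PIP4K2B replicate 2 or WT-TAF3 shX replicate 1 or 2 of the differentiated cells, and 2 to 3 for the KK-TAF3 interaction. Over 27 alternatives the interaction call was lost in 6 for Tnnc1, among them testing every transcript cluster and leaving out WT-TAF3 sh-PIP4K2B etoposide replicate 2, and in 4 for Tnnt1, with adjusted p-values up to 0.24 and 0.169.

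The replicate numbers gave residual correlations of -0.418 to 0.593 between same-numbered arrays (median 0.030 over 45 pairs), and 6 of 18 arrays correlated best with their own number. In differentiated cells every comparison held a pair below 0. After etoposide all 3 pairs were over 0.1 for WT-TAF3 sh-PIP4K2B with WT-TAF3 shX (0.435, 0.332 and 0.559) and for KK-TAF3 sh-PIP4K2B with WT-TAF3 shX (0.169, 0.10 and 0.593). With the replicate block the troponin counts were as without it, 3, 3 and 1 in differentiated cells, 0 in each genotype comparison after etoposide, 2 for etoposide in each genotype, and 3 and 2 for the depletion and KK-TAF3 interactions.

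Counts over all genes were less stable. Depletion in differentiated cells gave 211 calls, 349 after centring and 140 among genes above the median signal, which held 5 of the troponin genes. Its interaction gave 801 calls, of which 48.4% were upward, and 96 with the covariate, 274 over every cluster and 1356 after centring, of which 4.87% were upward. With 1 array left out they ranged between 140 and 323, and between 180 and 2668 for the interaction. With 3 arrays a group the standard errors rest on the spread pooled over groups.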
